A study of Mus musculus with 10 samples.

Results

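The DNA replication genes described here are 37 genes chosen by symbol from the 23240 genes of the expression table, and all 37 were found in it. They were read in RNA-seq of mouse bone-marrow progenitors, in 10 libraries that make 5 groups of 2. Wild-type cells came from Runx1+/+-Tg(vav-Cre) mice, and Runx1-deleted cells from Runx1fl/fl-Tg(vav-Cre) mice, so that every group carried the vav-Cre transgene, which expresses Cre recombinase from the vav promoter, active across blood cells. Within the lin- sca- kit+ CD41- CD105- gate, GMP were taken as CD16/32+ CD150- cells. MEP were CD16/32- CD150+, while XMP stained for both and were CD16/32+ CD150+. GMP are granulocyte and monocyte progenitors, MEP are megakaryocyte and erythroid progenitors, and XMP were sequenced from Runx1-deleted mice only. The labels give no age or sex, and do not say whether the libraries of a group came from separate mice, so the p-values below measure only the spread between these libraries, which may be technical.

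Before a cell divides it copies its genome once. Cdc6 and Cdt1 load the ring-shaped MCM helicase onto replication origins, and Mcm10 and the GINS complex help to switch it on. DNA polymerase alpha with its primase starts each strand, replication factor C (RFC) loads the sliding clamp Pcna, and polymerases delta and epsilon extend the strands. Replication protein A (RPA) covers single-stranded DNA, Fen1 and Lig1 join the fragments of the lagging strand, and ribonucleotide reductase, Tyms and Dut keep the nucleotide pools in shape. The chromatin assembly factors Chaf1a and Chaf1b, the maintenance methylation cofactor Uhrf1 and the histone mRNA binding protein Slbp act as chromatin is rebuilt. Many of these genes are known targets of E2F transcription factors and are transcribed as cells enter S phase, so in bulk RNA fewer cells in S phase and less RNA per cell cannot be told apart.

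The shared promoter sequence of the family was looked at first. RefSeq promoter windows of GRCm38.p6, from 250 bases before to 50 bases after a start site, were matched for 30 of the 37 genes, in 35 windows. An E2F motif was searched as TTTCCCGC, TTTGGCGC, TTTCGCGC or TTTGCCGC on both strands. It was found in 11 of the 30 genes, namely Mcm3, Mcm5, Mcm6, Mcm7, Cdt1, Cdc6, Rfc3, Pola1, Pold1, Lig1 and Uhrf1. These made 31.4% of the 35 windows, beside 2.27% of all 32851 windows of the same length. The CCAAT box, the motif of the factor NF-Y, was found in 19 of the 30 genes, in 60% of their windows and in 37.4% of all windows. Windows of 3 MCM genes with more than 1 motif, and that of Rrm2, the gene whose level differed most between the groups, show what these promoters look like. In the MCM windows the capitals mark the E2F motifs, and in that of Rrm2 they mark CCAAT. The windows lie at chr1:20820263-20820562 on the minus strand for Mcm3, chr1:128359656-128359955 on the minus strand for Mcm6, chr8:75109259-75109558 on the plus strand for Mcm5 and chr12:24708004-24708303 on the plus strand for Rrm2.
Mcm3: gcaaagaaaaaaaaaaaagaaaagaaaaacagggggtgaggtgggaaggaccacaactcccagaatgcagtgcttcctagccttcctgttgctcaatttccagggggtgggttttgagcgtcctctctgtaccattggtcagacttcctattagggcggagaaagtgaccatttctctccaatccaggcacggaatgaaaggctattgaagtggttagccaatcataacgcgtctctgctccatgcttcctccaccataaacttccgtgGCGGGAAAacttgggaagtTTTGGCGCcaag
Mcm6: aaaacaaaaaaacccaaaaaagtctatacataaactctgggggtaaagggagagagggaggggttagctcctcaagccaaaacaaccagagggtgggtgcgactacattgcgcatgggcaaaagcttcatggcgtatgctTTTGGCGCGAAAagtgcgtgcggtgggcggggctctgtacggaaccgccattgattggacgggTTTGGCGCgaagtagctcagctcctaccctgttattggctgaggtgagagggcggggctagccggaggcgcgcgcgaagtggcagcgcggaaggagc
Mcm5: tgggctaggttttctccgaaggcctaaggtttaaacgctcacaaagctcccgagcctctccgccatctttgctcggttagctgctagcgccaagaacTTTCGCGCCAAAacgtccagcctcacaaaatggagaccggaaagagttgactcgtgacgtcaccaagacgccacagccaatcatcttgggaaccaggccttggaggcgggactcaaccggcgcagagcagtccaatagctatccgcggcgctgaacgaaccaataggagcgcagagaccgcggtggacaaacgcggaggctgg
Rrm2: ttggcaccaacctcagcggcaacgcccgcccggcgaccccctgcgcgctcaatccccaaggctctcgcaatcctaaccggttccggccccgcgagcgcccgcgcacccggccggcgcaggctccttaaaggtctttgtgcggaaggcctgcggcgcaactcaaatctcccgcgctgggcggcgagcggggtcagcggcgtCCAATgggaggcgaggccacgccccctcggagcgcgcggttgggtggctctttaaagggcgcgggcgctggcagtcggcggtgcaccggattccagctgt
The Mcm6 window holds 3 matches, 2 of which overlap in 1 run, and the 2 matches of Mcm5 overlap as well. Mcm3 has 2 separate matches, both after the start site. Rrm2 holds none of the 4 E2F letter strings in this window and 1 CCAAT. A match describes the letters of the window and was not measured as a binding site. These windows are of another build than the expression table, so they are linked to it by gene symbol alone.

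The libraries rested on totals of 20.8 to 54.9 M reads, worked back from the RPKM values (reads per kilobase of gene and M reads of the library). Each value of a replication gene rested on 334 to 27443 reads. Counting error was not compared with the spread between libraries. Runx1 itself was at 28.5 and 26.8 RPKM in wild-type GMP and at 63.0 and 72.3 RPKM in Runx1-deleted GMP. It was at 17.2 and 25.5 RPKM in wild-type MEP, at 41.5 and 36.8 RPKM in Runx1-deleted MEP and at 85.9 and 78.5 RPKM in XMP. A value over the whole gene does not measure the deleted part and so does not check the deletion. The sorted types carried their markers: 8 granulocyte and monocyte markers summed to 12302 to 12391 RPKM in wild-type GMP and 41.9 to 58.2 RPKM in wild-type MEP, and 8 erythroid markers summed to 36.9 to 41.9 RPKM and 1103 to 1180 RPKM in the same groups. None of the markers in these lists was listed at 0 in all libraries of a group.

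All 37 replication genes passed the filter of at least 1 RPKM in at least 2 libraries, as did 10905 genes of the table. Their median level was 51.3 RPKM, beside 11.0 RPKM over the tested genes. The lowest of them, Pole, the catalytic subunit of polymerase epsilon, averaged 13.5 RPKM over the 10 libraries and the highest, Pcna, 382 RPKM. Pcna was the highest replication gene in all 10 libraries. All 37 stood above the middle of the tested genes, the lowest at percentile 56.2 and the median at percentile 87.9.

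Among the licensing genes the MCM helicase was at a high level throughout. Mcm7 had the highest mean of the licensing group and was its highest gene in 5 of 10 libraries, Mcm6 in the other 5. Mcm7 was at 217 and 158 RPKM in wild-type GMP, 209 and 199 RPKM in Runx1-deleted GMP, 163 and 198 RPKM in wild-type MEP, 209 and 148 RPKM in Runx1-deleted MEP, and 179 and 157 RPKM in XMP. Libraries of 1 group lay as far apart as libraries of different groups. The 6 subunits of the ring lay within 2.85-fold to 3.46-fold of each other in each library, and Mcm4 was the lowest of them in 10 of 10 libraries, with a mean of 58.4 RPKM. The loaders Cdt1 and Cdc6 averaged 51.3 and 15.2 RPKM.

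Gins2, a GINS subunit, was the highest of the helicase activation genes in 10 of 10 libraries. In wild-type GMP it was at 50.8 and 54.1 RPKM. It was at 35.5 and 38.03 RPKM in Runx1-deleted GMP, 40.8 and 33.2 RPKM in wild-type MEP, 38.5 and 20.9 RPKM in Runx1-deleted MEP, and 31.5 and 23.8 RPKM in XMP. Both wild-type GMP libraries stood above the other 8. Pold1, the catalytic subunit of polymerase delta, had the highest mean of the primase and polymerase genes and was the highest in 8 of 10 libraries, with 57.0 and 37.1 RPKM in wild-type GMP, 48.8 and 54.0 RPKM in Runx1-deleted GMP, 52.5 and 64.4 RPKM in wild-type MEP, 62.2 and 46.8 RPKM in Runx1-deleted MEP, and 60.5 and 53.0 RPKM in XMP. The groups overlapped.

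Pcna was at 434 and 407 RPKM in wild-type GMP, 341 and 353 RPKM in Runx1-deleted GMP, 436 and 398 RPKM in wild-type MEP, 462 and 287 RPKM in Runx1-deleted MEP, and 412 and 293 RPKM in XMP. The widest gap stood between the libraries of Runx1-deleted MEP, and those of XMP also lay far apart. Among the 5 clamp loader subunits Rfc2 was the highest in 10 of 10 libraries, at 3.95 to 12.2 times the lowest subunit. The 12.2-fold gap belonged to wild-type MEP replicate 1, where Rfc1, the longest RFC gene, was low.

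The RPA subunits were closer together, within 1.14-fold to 2.29-fold in each library. Rpa3, the smallest subunit, was at 80.0 and 67.6 RPKM in wild-type GMP, 47.2 and 49.1 RPKM in Runx1-deleted GMP, 102 and 67.5 RPKM in wild-type MEP, 65.7 and 44.9 RPKM in Runx1-deleted MEP, and 60.4 and 39.3 RPKM in XMP. In both cell types every wild-type library was above every Runx1-deleted one. Lig1, the replicative DNA ligase, was at 70.02 and 51.6 RPKM in wild-type GMP, 71.4 and 78.4 RPKM in Runx1-deleted GMP, 51.8 and 63.4 RPKM in wild-type MEP, 70.7 and 50.3 RPKM in Runx1-deleted MEP, and 79.0 and 66.2 RPKM in XMP. Uhrf1 had the highest mean of the chromatin group and was its highest gene in 6 of 10 libraries, Slbp in the other 4. Uhrf1 was at 94.0 and 96.7 RPKM in wild-type GMP, 89.8 and 94.0 RPKM in Runx1-deleted GMP, 51.8 and 73.2 RPKM in wild-type MEP, 88.9 and 49.9 RPKM in Runx1-deleted MEP, and 84.96 and 68.2 RPKM in XMP. All 4 GMP libraries stood above all 4 MEP libraries for Uhrf1, by a small margin for Runx1-deleted MEP replicate 1.

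**Figure D1:**
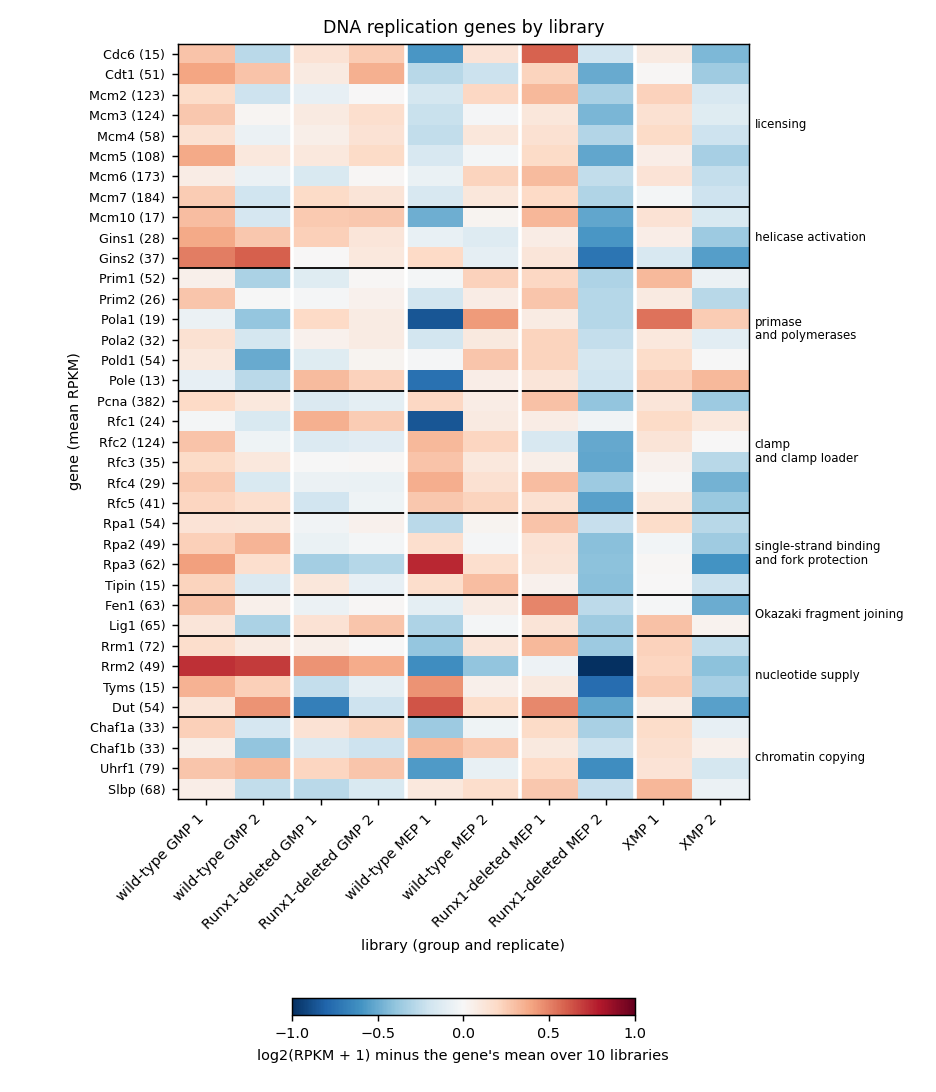
Level of each of the 37 replication genes (rows, by role, with the mean RPKM in brackets) in each of the 10 libraries (columns), as log2(RPKM + 1) minus the gene's mean over the libraries. Red is above and blue below that mean; the column of Runx1-deleted MEP replicate 2 is below the gene's mean for all 37 genes, and the row of Rrm2 is red in the 4 GMP libraries and blue in the 4 MEP libraries.

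The replication genes varied less between groups than most genes. The range of the 5 group means had a median of 0.43 on the log2 scale over the 37 genes and 0.71 over all tested genes. It was above 1 for 1 replication gene, Rrm2, and for 30.6% of the tested genes. The group mean was highest in wild-type GMP for 14 of the 37 genes, in wild-type MEP for 11, in Runx1-deleted GMP for 8, in XMP for 4 and in Runx1-deleted MEP for 0.

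The mean of log2(RPKM + 1) over the 37 genes gives 1 value for each library. Wild-type GMP gave 5.83 and 5.60, and Runx1-deleted GMP gave 5.61 and 5.67. Wild-type MEP gave 5.504 and 5.69, Runx1-deleted MEP 5.80 and 5.21, and XMP 5.74 and 5.39. The group values were 5.71 ± 0.16, 5.64 ± 0.04, 5.60 ± 0.13, 5.505 ± 0.42 and 5.56 ± 0.25 (SD, n = 2) in the same order. All groups overlapped at least 1 other group, and the whole range of group values was smaller than the gap between the libraries of Runx1-deleted MEP or of XMP. Less the mean over all tested genes, the libraries lay between 1.67 (Runx1-deleted MEP replicate 2) and 2.20 (wild-type GMP replicate 1), and XMP replicate 2 was at 1.79.

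**Figure D2:**
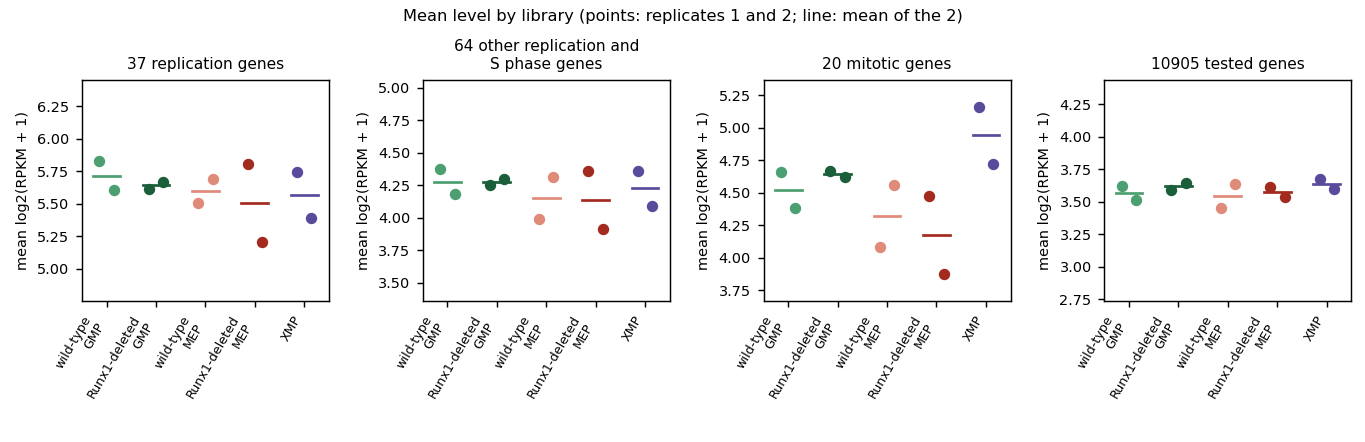
Mean log2(RPKM + 1) of each library over the 37 replication genes, 64 other replication and S phase genes, 20 mitotic genes and the 10905 tested genes (y axes, each spanning the same log2 width). Points are libraries and lines are the means of 2. The 2 points of Runx1-deleted MEP and of XMP lie far apart in the first 3 panels and close together in the last. In the middle 2 panels the points of wild-type MEP lie further apart than those of XMP.

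The largest shared movement of the replication genes was between libraries of 1 group. In Runx1-deleted MEP replicate 1 was above replicate 2 for 37 of 37 genes, with a median gap of 0.56 on the log2 scale, while 61.5% of all tested genes were higher in replicate 1, with a median gap of 0.08. In XMP replicate 1 was above replicate 2 for 36 of 37 genes, with a median gap of 0.38, against 65.6% and 0.09 over all tested genes. The exception in XMP was Pole. The nucleotide supply genes Rrm1, Rrm2, Tyms and Dut had the widest median gap of the role groups, 0.90 in Runx1-deleted MEP and 0.60 in XMP. The gap was narrower in wild-type GMP, where 33 of 37 genes were higher in replicate 1 by a median of 0.24 (all tested genes 68.9% and 0.13). In Runx1-deleted GMP 10 and in wild-type MEP 12 of the 37 were higher in replicate 1, beside 36.6% and 36.4% of all tested genes.

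Some other genes moved with them in these pairs of libraries. All 20 mitotic genes were higher in replicate 1 both in Runx1-deleted MEP, by a median of 0.66, and in XMP, by a median of 0.48. Of the megakaryocyte markers 8 of 8 were higher in replicate 1 of Runx1-deleted MEP, with summed levels of 791 and 662 RPKM. So were 6 of 8 erythroid markers (737 and 716 RPKM), beside 61.5% of all tested genes. The erythroid median gap of 0.10 was close to the 0.08 of all tested genes. Of the mast cell and basophil markers 1 of 6 was higher in replicate 1, with a median gap of -0.15. In XMP the shift in the markers ran over most lineages. Replicate 1 was higher for 8 of 8 erythroid markers (summed levels of 542 and 316 RPKM) and 8 of 8 granulocyte and monocyte markers (174 and 136 RPKM). It was also higher for 7 of 8 megakaryocyte markers (1739 and 1392 RPKM) and 3 of 3 tested macrophage markers. Of the mast cell and basophil markers 3 of 6 were higher there, beside 65.6% of all tested genes. The part of these cell types in the gap was not tested. The labels number the libraries 25 to 34. Replicate 1 of Runx1-deleted MEP and of XMP are numbers 28 and 29, and their second replicates are 33 and 34. The lower-numbered library was the higher one for 33 replication genes in wild-type GMP and for 27 in Runx1-deleted GMP, but for 12 in wild-type MEP. Of all tested genes 68.9%, 63.3% and 36.4% were higher in the lower-numbered library of these groups. Comparisons that use Runx1-deleted MEP or XMP rest on 2 such libraries, and a call that changes without the lower one is given with its value.

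Between wild-type GMP and wild-type MEP the replication gene that differed was Rrm2, which encodes the small subunit of ribonucleotide reductase, the enzyme that makes deoxynucleotides. Rrm2 was at 76.6 and 74.9 RPKM in wild-type GMP and at 29.5 and 34.6 RPKM in wild-type MEP, and the groups did not overlap. It was higher in wild-type GMP by 1.22 ± 0.29 on the log2(RPKM + 1) scale (SE, 95% interval 0.58 to 1.86), with an adjusted p of 0.00999 (limma, Benjamini-Hochberg over all tested genes). This was 1 of 37 genes past an adjusted p of 0.05, beside 21.6% of all tested genes. The other 36 were not called: 4 of the 37 had an unadjusted p below 0.05, beside 31.5% of tested genes. The median difference of the 37 was 0.07, and -0.06 over all tested genes.

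The next largest differences belonged to Uhrf1, with 0.62 higher in GMP (adjusted p = 0.129), Cdt1, with 0.58 (adjusted p = 0.113), Gins2, with 0.50 (adjusted p = 0.219), and Chaf1b, with -0.46 (adjusted p = 0.116), all from limma. Cdt1 was at 66.2 and 61.2 RPKM in wild-type GMP and at 41.2 and 43.1 RPKM in wild-type MEP. Chaf1b, the middle subunit of chromatin assembly factor 1, was at 34.03 and 24.6 RPKM in wild-type GMP and at 41.1 and 39.4 RPKM in wild-type MEP. For both genes the groups did not overlap. Over the 37 genes 9 were higher and 3 lower in wild-type GMP without overlap, beside 22% and 27.1% of all tested genes.

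The call of Rrm2 was lost with a spread fitted for each group (adjusted p = 0.131, limma). It was also lost in limma when 1 library was dropped, with an adjusted p of 0.0647 for wild-type GMP replicate 1, 0.0710 for wild-type GMP replicate 2 and 0.0518 for wild-type MEP replicate 1. Without wild-type GMP replicate 1, which leaves 1 library in that group, the difference of Chaf1b was -0.69. Without the lower library of Runx1-deleted MEP and of XMP, 2 of 37 were called, Rrm2 and Cdt1, beside 17.9% of all tested genes. With the trend on gene length removed from each library, 6 of 37 replication genes were called in limma, beside 30.3% of all tested genes in that setting: Rrm2, Cdt1, Uhrf1, Gins2 and Gins1 higher in wild-type GMP and Chaf1b lower.

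Rrm2 also differed between GMP and MEP of Runx1-deleted mice. It was at 62.9 and 59.6 RPKM in Runx1-deleted GMP and at 44.01 and 22.3 RPKM in Runx1-deleted MEP, without overlap. The difference was 0.94 ± 0.29 (SE, 95% interval 0.31 to 1.58) on the log2(RPKM + 1) scale, with an adjusted p of 0.0340 in limma. It was the 1 replication gene called of 37, beside 24.5% of all tested genes. The largest of the others were Uhrf1 at 0.46, Dut at -0.43, Gins1 at 0.43 and Cdt1 at 0.36, none called. Dut, which removes dUTP from the nucleotide pool, was at 31.8 and 44.6 RPKM in Runx1-deleted GMP and at 72.7 and 35.9 RPKM in Runx1-deleted MEP, so the groups overlapped. The median over the 37 genes was 0.17, and -0.05 over all tested genes, while 7 genes were higher and 0 lower without overlap, beside 31.7% and 36% of all tested genes. The call of Rrm2 was lost in 9 of 24 alternatives, among them without Runx1-deleted MEP replicate 2, which left a difference of 0.47 (adjusted p = 0.284, limma; 0.185 without the lower library of XMP as well). Without Runx1-deleted MEP replicate 1, 5 of 37 replication genes were called higher in GMP, beside 18.7% of all tested genes: Rrm2, Gins1, Gins2, Uhrf1 and Cdt1. Runx1-deleted MEP is then 1 library, assumed to vary like the other groups. The mean over the 37 genes turned with the library left out: Runx1-deleted GMP minus MEP was 0.14 with both, 0.43 without replicate 1 and -0.16 without replicate 2.

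**Figure D3:**
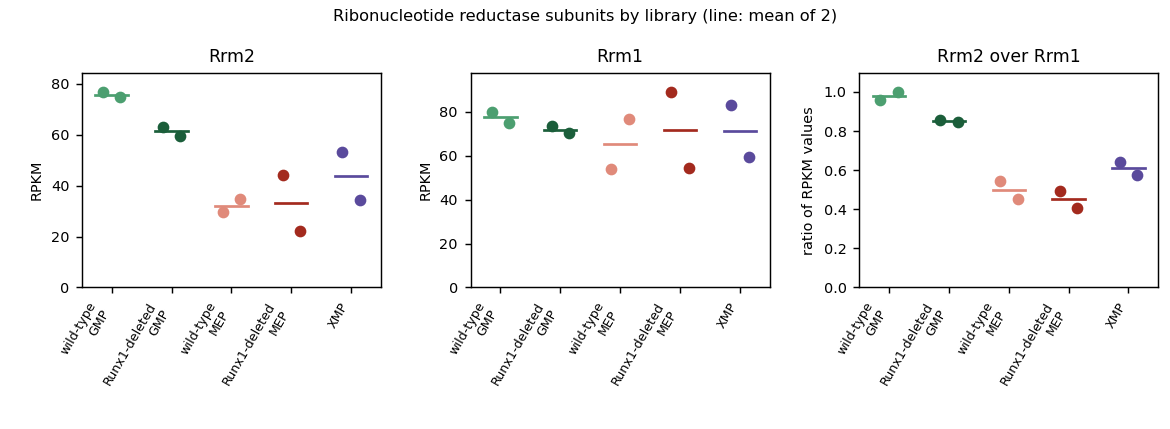
Levels of Rrm2 and Rrm1 in RPKM and the ratio of Rrm2 to Rrm1 in each of the 10 libraries (y axes from 0); points are libraries and lines the means of 2. Rrm2 and the ratio are higher in all 4 GMP libraries than in all 4 MEP libraries, while Rrm1 overlaps between the groups.

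Rrm2 was set beside Rrm1, the large subunit of the same enzyme, after its values were seen, so the ratio is a description. Rrm1 was at 80.0 and 75.1 RPKM in wild-type GMP, 73.6 and 70.4 RPKM in Runx1-deleted GMP, 54.0 and 77.0 RPKM in wild-type MEP, 88.9 and 54.7 RPKM in Runx1-deleted MEP, and 83.2 and 59.3 RPKM in XMP. Wild-type GMP had a ratio of Rrm2 to Rrm1 of 0.977 ± 0.029 and Runx1-deleted GMP one of 0.851 ± 0.0061 (SD, n = 2). Wild-type MEP had 0.498 ± 0.068, Runx1-deleted MEP 0.451 ± 0.062 and XMP 0.610 ± 0.046 (SD, n = 2). In XMP the ratio stood above all 4 MEP libraries and below all 4 GMP libraries. The libraries of Runx1-deleted MEP had 0.495 and 0.408, close to each other although both genes were lower in replicate 2. In wild-type MEP, too, the ratio of both libraries, 0.546 and 0.450, lay below every GMP value. Such a shift was not particular to this enzyme. The ratio of Chaf1a to Chaf1b was also higher in all 4 GMP libraries than in all 4 MEP libraries. From its lowest to its highest library it spanned 2.23-fold, and that of Rrm2 to Rrm1 2.44-fold. The ratios of Rfc2 to Rfc1 (3.33-fold) and Rpa3 to Rpa1 (2.59-fold) spanned more, and overlapped between GMP and MEP.

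Taking the 4 GMP libraries against the 4 MEP libraries, over both genotypes, 3 of 37 replication genes were higher in all GMP libraries, namely Rrm2, Uhrf1 and Gins1, and 0 were lower, beside 14% and 13.7% of all tested genes. Relative to the mean of the 37 genes in the same library, 6 were higher in all GMP libraries (Rrm2, Uhrf1, Gins1, Cdt1, Mcm3 and Mcm5) and 5 were lower (Chaf1b, Mcm6, Prim1, Pold1 and Slbp), beside 10.4% and 17.2% of all tested genes on the same scale. Centring on the mean of the 37 puts some of them on either side by construction.

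Deletion of Runx1 in GMP was compared next, in Runx1-deleted minus wild-type GMP. None of the 37 replication genes was called, beside 5.22% of all tested genes. By an unadjusted p below 0.05 in limma, 2 of 37 would pass, beside 22.8% of tested genes. The 37 genes had a median of -0.10, beside 0.05 over all tested genes, with 12 positive and 25 negative values. With quantile normalization the median was 0.08, with 24 positive and 13 negative values, so the direction depends on the scaling. The largest difference was that of Dut, at 56.7 and 70.9 RPKM in wild-type GMP and 31.8 and 44.6 RPKM in Runx1-deleted GMP, which makes -0.74 ± 0.33 (SE, adjusted p = 0.215, limma). Rpa3 followed with -0.60 ± 0.27 (SE, adjusted p = 0.208, limma), and Gins2 with -0.50 ± 0.26 (SE, adjusted p = 0.271, limma). Tyms, which makes thymidylate, was at 18.6 and 17.2 RPKM in wild-type GMP and 12.03 and 13.4 RPKM in Runx1-deleted GMP, a difference of -0.46, and Pole was at 0.45. Without overlap 4 genes were higher and 14 lower in Runx1-deleted GMP, beside 37.2% and 29.4% of all tested genes. For 32 of 37 genes the 95% interval lay within a 2-fold change either way. With only the 2 groups in the fit, 3 of 37 genes were called lower, Rpa3, Dut and Gins2, beside 17.7% of all tested genes called in that fit.

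In MEP, Runx1-deleted minus wild-type, none of the 37 was called either, beside 8% of all tested genes, and 2 of 37 had an unadjusted p below 0.05, beside 22.1%. Rfc2, a clamp loader subunit, came closest, at 153 and 142 RPKM in wild-type MEP and 110 and 85.5 RPKM in Runx1-deleted MEP. Its difference was -0.60 ± 0.19 (SE, 95% interval -1.02 to -0.19, adjusted p = 0.0829, limma), and the groups did not overlap. Rpa3 had -0.60 (adjusted p = 0.213) and Tyms -0.58 (adjusted p = 0.266) in limma, Rfc5, another loader subunit, had -0.44, and Tipin, which protects stalled forks, -0.43. The median over the 37 was -0.04, beside 0.03 over all tested genes, and 0.02 with quantile normalization. Without overlap 0 were higher and 6 lower, beside 21.6% and 21% of all tested genes. Rfc2 was called with the length trend removed (-0.45, adjusted p = 0.0285, limma), and with the library number set as a block (-0.60, adjusted p = 0.0273, limma). Without wild-type MEP replicate 2, 5 of 37 genes were called, beside 31.4% of all tested genes, with Pola1, Pole and Rfc1 higher and Rpa3 and Rfc2 lower.

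**Figure D4:**
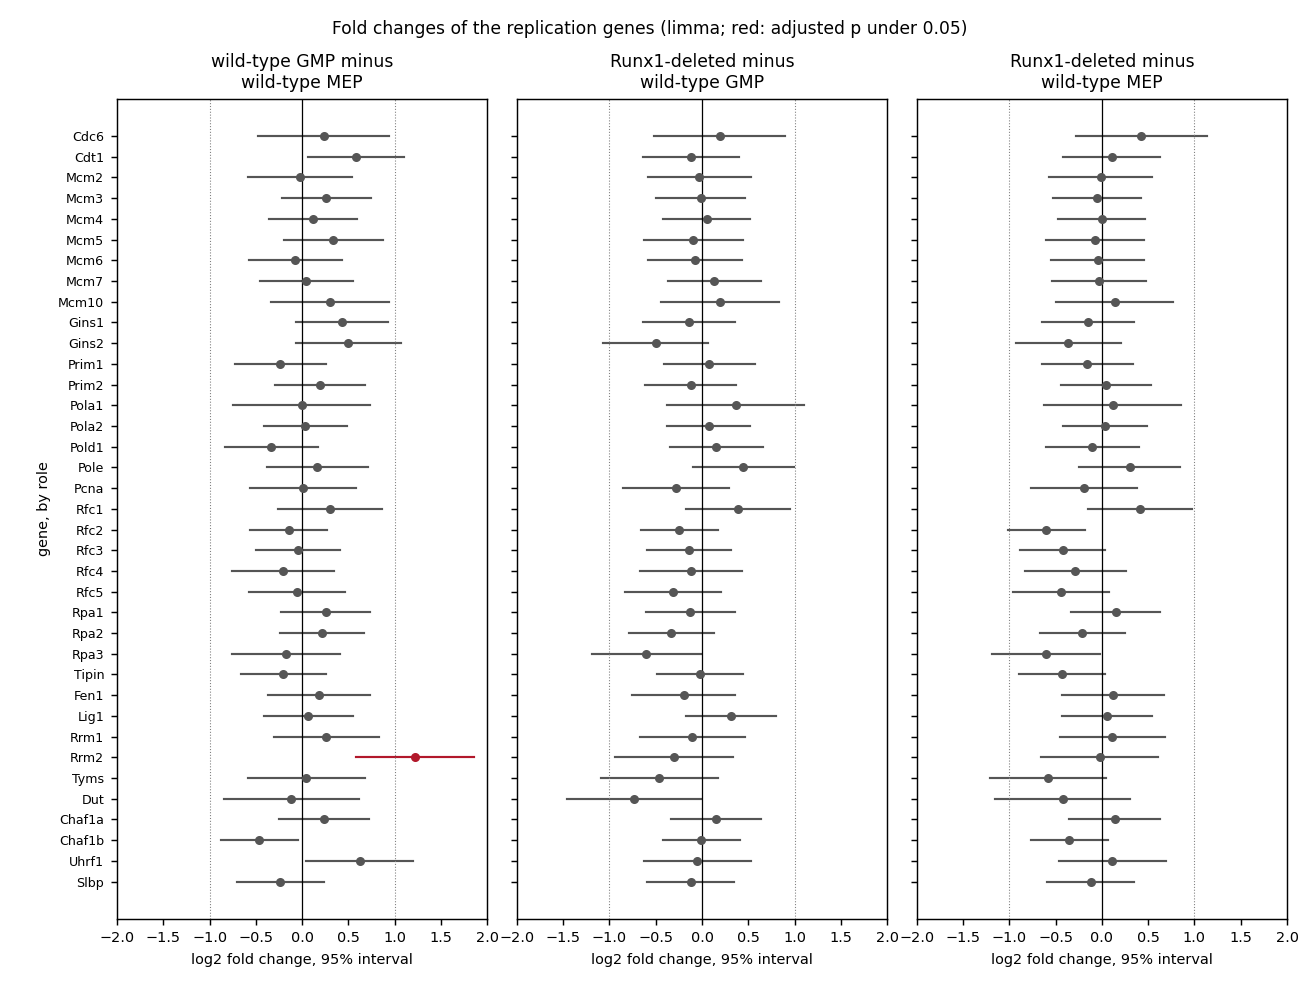
Log2 fold change (x axis) with its 95% interval for each of the 37 replication genes (y axis, by role) in wild-type GMP minus wild-type MEP and in Runx1-deleted minus wild-type GMP and MEP; dotted lines mark 2-fold. Rrm2 in the first panel, at 1.22, is the 1 gene past an adjusted p of 0.05.

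The Runx1 effect in GMP minus that in MEP tests whether deletion moved a gene differently in the 2 cell types. None of the 37 genes was called, beside 1.74% of all tested genes, and none had an unadjusted p below 0.05 in limma, beside 10.1% of tested genes. The largest values were 0.41 for Tipin, 0.36 for Rfc2, 0.35 for Chaf1b, -0.32 for Fen1 and -0.31 for Dut. The median half-width of the 95% interval was 0.73 here, wider than the 0.52 of the other comparisons, so differences of this size were within the error.

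The values of both genotype comparisons ran along gene length. Across the 37 genes length and log2 fold change had a Spearman's rho of 0.62 for GMP and 0.71 for MEP, and across all tested genes 0.46 and 0.45; genes are not independent replicates, and all share the same libraries. Of the 14 replication genes shorter than 2000 bp, 13 had negative values in each cell type, with medians of -0.14 in GMP and -0.32 in MEP. The other 23 had medians of -0.02 and 0.06. Rpa3, at 638 bp, is the shortest of the 37 and Pole, at 7129 bp, the longest. After removal of a smooth trend on length from each library, rho was -0.02 and 0.19, Rpa3 was no longer among the extreme genes, and Dut and Tyms had the lowest values in GMP. The libraries themselves differed in this trend, measured as the median log2 level of the longest quartile of tested genes minus that of the shortest, with each gene centred on its mean over the libraries. It stood at -0.28 and -0.34 in wild-type GMP and at 0.27 and 0.19 in Runx1-deleted GMP. The libraries of wild-type MEP had -0.86 and 0.13, those of Runx1-deleted MEP -0.0029 and 0.26, and those of XMP 0.22 and 0.46. The read-file names in the labels put the wild-type GMP libraries on lanes 3 and 2 and both Runx1-deleted GMP libraries on lane 5, so lane and genotype cannot be told apart in GMP. Wild-type MEP replicate 1 was on lane 3, and wild-type MEP replicate 2 and both Runx1-deleted MEP libraries were on lane 5. XMP replicate 1 was on lane 5 and XMP replicate 2 on lane 4. TruSeq or NEBNext Ultra kits were used, and the labels do not tie a kit to a library. The part of lanes and kits in the trend was not tested.

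**Figure D5:**
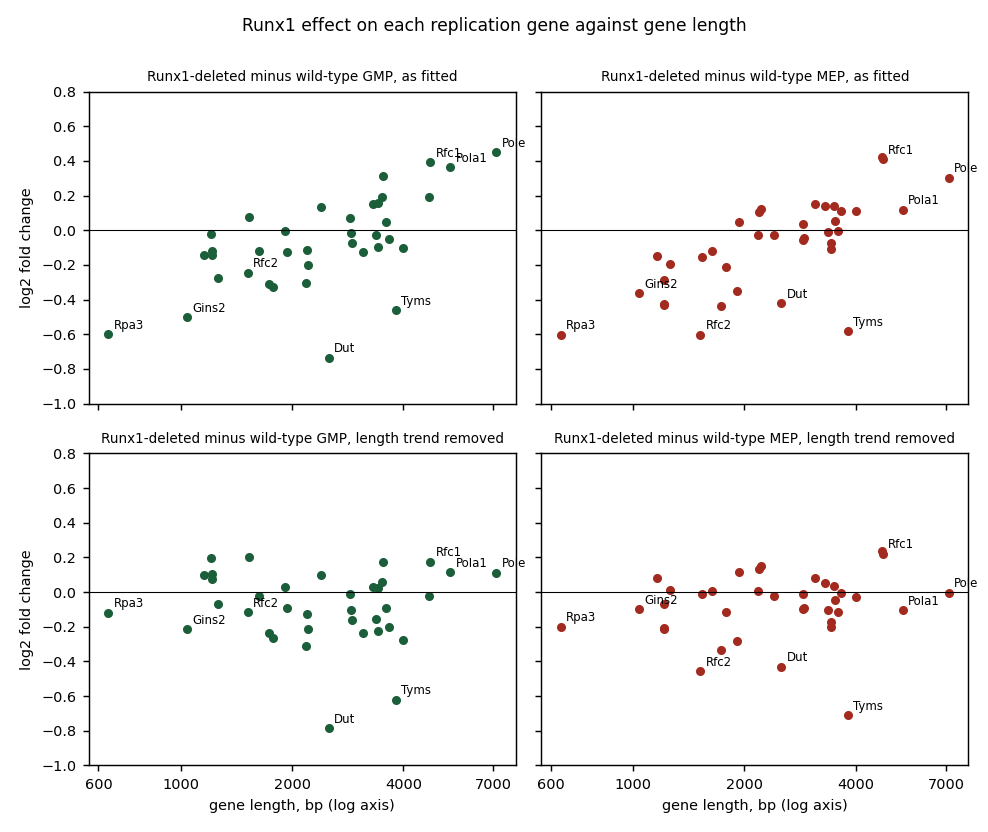
Log2 fold change of each of the 37 replication genes (y axis) against gene length in bp (log x axis) for Runx1-deleted minus wild-type GMP and MEP, as fitted (top) and with each library's length trend removed (bottom). Points climb from Rpa3 at 638 bp to Pole at 7129 bp in the top panels and lie nearly level in the bottom ones.

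XMP were compared with the other Runx1-deleted progenitors. These comparisons share XMP libraries with each other and Runx1-deleted libraries with those above. Against Runx1-deleted GMP none of the 37 genes was called and none had an unadjusted p below 0.05 in limma, beside 19.7% and 28.2% of all tested genes. Rrm2 had the largest difference, with 53.4 and 34.3 RPKM in XMP and 62.9 and 59.6 RPKM in Runx1-deleted GMP, or -0.51 (95% interval -1.14 to 0.13, adjusted p = 0.303, limma). Gins2 was at -0.41, Cdt1 at -0.39, Cdc6 at -0.38 and Slbp at 0.35. Without overlap 4 genes were higher and 10 lower in XMP, beside 37.4% and 28.6% of all tested genes.

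Against Runx1-deleted MEP, again none was called or had an unadjusted p below 0.05 in limma, beside 7.74% and 19.8% of all tested genes. Pola1, the catalytic subunit of polymerase alpha, had the largest difference, with 27.2 and 22.1 RPKM in XMP and 19.5 and 14.9 RPKM in Runx1-deleted MEP, or 0.50. Rrm2 was at 0.44, Rfc2 at 0.40, Cdc6 at -0.38 and Fen1 at -0.37. Rfc2 was at 134 and 123 RPKM in XMP and 110 and 85.5 RPKM in Runx1-deleted MEP, without overlap, and was called with the length trend removed (0.46, adjusted p = 0.0222, limma). For 35 of 37 genes against GMP and 34 of 37 against MEP the 95% interval lay within a 2-fold change either way. The 4 genes higher without overlap compare with 33.6% of all tested genes, and 0 were lower, beside 20.1%.

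A list of 20 mitotic genes, whose products act after S phase, was read beside the replication genes in the comparison of XMP with Runx1-deleted MEP. All 20 had positive values, from 0.54 to 1.08 with a median of 0.74, while the 37 replication genes had a median of 0.07 and all tested genes 0.05. Between the 2 libraries of a group the same 20 genes differed by a median of 0.66 in Runx1-deleted MEP and 0.48 in XMP. Their median was 0.31 in XMP minus Runx1-deleted GMP, 0.46 in Runx1-deleted GMP minus MEP and 0.20 in wild-type GMP minus MEP. Of the 20, Nusap1 and Kif23, which act on the spindle and in cytokinesis, were called higher in XMP than in Runx1-deleted MEP. This stands beside 7.74% of all tested genes called. Nusap1 was at 31 ± 6.21 RPKM in XMP and 14.1 ± 2.43 RPKM in Runx1-deleted MEP (SD, n = 2), a difference of 1.08 with an adjusted p of 0.0191 in limma. The call of Nusap1 held in 19 and that of Kif23 in 18 of 23 alternatives. Kif23 was also called higher in GMP than in MEP, by 0.82 in wild-type mice (adjusted p = 0.0353, limma) and by 1.15 in Runx1-deleted mice. Beside it 21.6% and 24.5% of all tested genes were called. Outside the wild-type comparison these genes were named after their values were seen, and no test compared the lists.

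Outside the 37, 64 other replication and S phase genes were tested. In Runx1-deleted minus wild-type GMP 0 of 64 were called, beside 5.22% of all tested genes, and in the difference of the Runx1 effects 0 of 64, beside 1.74%. In MEP 1 of 64 was higher and 2 were lower after deletion, beside 8% of all tested genes called in either direction. E2f2, an activating E2F factor, rose from 4.16 ± 0.71 to 8.68 ± 0.46 RPKM (SD, n = 2; log2 difference 0.91, adjusted p = 0.0159, limma). E2f8, a repressing E2F factor, fell from 41.7 ± 12.7 to 22.1 ± 3.38 RPKM (SD, n = 2; -0.86, adjusted p = 0.0332, limma), and the nucleotide pyrophosphatase Dctpp1 fell from 207 ± 66.0 to 99.6 ± 29.9 RPKM (SD, n = 2; -1.04, adjusted p = 0.0342, limma). Of 23 alternatives the call held in 18 for E2f2, 12 for E2f8 and 12 for Dctpp1, and the sign held in all 23 for each.

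Between wild-type GMP and wild-type MEP 2 of the 64 were higher and 1 lower, beside 21.6% of all tested genes called. Pclaf, a Pcna-binding protein listed in the table as 2810417H13Rik, was at 12.2 ± 3.25 RPKM in GMP and 3.81 ± 0.80 RPKM in MEP (SD, n = 2; 1.44, adjusted p = 0.00207, limma). Mcmbp, which binds MCM subunits, was higher by 0.63 (adjusted p = 0.0381, limma), and Orc5, a subunit of the origin recognition complex, was lower, at 11.2 ± 1.02 against 20.1 ± 0.33 RPKM (SD, n = 2; -0.79, adjusted p = 0.00489, limma). Of 23 alternatives the call held in 23 for Pclaf, 21 for Orc5 and 12 for Mcmbp. The same 3 genes were called in the same directions between GMP and MEP of Runx1-deleted mice, at 1.56 for Pclaf, 0.58 for Mcmbp and -0.97 for Orc5, where Shmt1, at 1.12, and Hells, at 0.997, were called as well. Of 24 alternatives these calls held in 24 for Pclaf, 24 for Orc5, 23 for Shmt1, 12 for Mcmbp and 7 for Hells. In XMP against Runx1-deleted GMP E2f7, a repressing E2F factor, was called higher and Mcmbp and Pclaf lower, beside 19.7% of all tested genes called, and against Runx1-deleted MEP Orc5 was called lower, beside 7.74%. These calls held in 11 of 23 alternatives for E2f7, 15 of 24 for Mcmbp, 19 of 24 for Pclaf and 14 of 23 for Orc5. The genes of these comparisons within Runx1-deleted mice were named after their values were seen.

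The genes were also divided by the promoter motif, without a test of the difference. The 11 genes with an E2F motif had a median of 0.07 in wild-type GMP minus wild-type MEP and the 19 without had 0.03, and for Runx1-deleted minus wild-type the medians were -0.02 and -0.12 in GMP and -0.03 and -0.12 in MEP. The widest gap stood in Runx1-deleted GMP minus Runx1-deleted MEP, with 0.24 for the genes with the motif and -0.0015 for those without. Rrm2, the gene that differed most, is among the 19.

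The authors' deposited table holds their own tests (Baggerley's test with false discovery rates, per its headers). In the authors' deposited table Rrm2 had a false discovery rate of 7.02e-07 between wild-type MEP and wild-type GMP, the 1 replication gene below 0.05 there, beside 6.61% of the tested genes. Between Runx1-deleted MEP and Runx1-deleted GMP the authors' deposited table gave it 0.0947, and none of the 37 was below 0.05, beside 9.80% of the tested genes. For the genotype comparisons in GMP and in MEP the authors' deposited table listed none of the 37 below 0.05, beside 1.97% and 1.65% of the tested genes. For XMP against Runx1-deleted MEP the authors' deposited table listed Rfc2 at 0.0499, beside 3.49% of the tested genes below 0.05. Against Runx1-deleted GMP the authors' deposited table listed none of the 37, beside 7.97%. Comparisons across both genotype and cell type were tested there too. Between wild-type MEP and Runx1-deleted GMP the authors' deposited table listed Cdt1, Lig1, Mcm3, Mcm5, Mcm7 and Rrm2 below 0.05, beside 7.94%. For Runx1-deleted MEP against wild-type GMP it listed Rrm2 at 0.0415, beside 12.5%. For XMP it listed Lig1 at 0.0320 against wild-type MEP (4.22%) and none of the 37 against wild-type GMP (14.6%).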

How the data were processed

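RNA-seq of 10 libraries was analysed in 5 groups of 2. The authors deposited 1 table with RPKM values for 23240 genes in each library and, per the file headers, with p-values and false discovery rates of Baggerley's test. Reads were placed on mm9, per the submitters' processing notes. Aligner and annotation: not given in the sources used here. RPKM scales reads by gene length and library, so changes are relative to the other genes.

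The 10905 genes that reached 1 RPKM in 2 or more libraries were fitted as log2(RPKM + 1) by limma (version 3.58.1, R version 4.3.3; lmFit, then eBayes with a trend), with 1 mean per group, all 10 libraries, 5 residual degrees of freedom and Benjamini-Hochberg adjustment over all tested genes; the threshold was an adjusted p of 0.05. Fold changes on this scale understate those of low genes. The plan covered counts and normalized values, and the branch for RPKM was followed. Whole reads were worked back from the RPKM steps: within 0.01 read, all values of 19336 genes were whole and 0 genes were not, with 3904 at 0 throughout. These reads gave library totals, gene lengths and an alternative fit (voom). The limma and read steps were tested on simulated data.

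The 37 genes and the other gene lists were chosen with earlier results of these data known. Genes were named as all members past the threshold or the 5 largest differences of a comparison, with values by library for the 3 largest and for the highest gene of each role; of the other lists, up to 2 genes per direction with the smallest p in the genotype comparisons and in wild-type GMP against wild-type MEP. Of the other replication genes Ticrr had no matching symbol and was not analysed here. Alternatives were other scaling, pseudocount, filter, fit, length trend removed, lanes, blocks and leaving out libraries.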

Additional observations from a re-analysis of the deposited data

How the results depend on the processing

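The number of replication genes called moved in a few settings, and the share of all tested genes called moved between settings too. Where both groups kept 2 libraries that share is given in brackets. With only the compared groups fitted the number was 3 for the Runx1 effect in GMP (17.7%) and 0 for Runx1-deleted GMP against MEP (31.6%). With the length trend removed it was 1 for the Runx1 effect in MEP (12.6%) and 1 for XMP against Runx1-deleted MEP (14.8%). It was 6 for wild-type GMP against MEP (30.3%) and 2 for Runx1-deleted GMP against MEP (33.3%) in that setting. With the library number set as a block it was 1 for the Runx1 effect in MEP (9.78%). In wild-type GMP against MEP it was 2 with quantile normalization (25.2%) and 0 with a spread for each group (12.2%). In Runx1-deleted GMP against MEP it was 0 with no filter (14.8%) and 0 in lanes 4 and 5 alone (32.9%). Leaving out 1 library moved the number for the Runx1 effect in MEP and for both GMP against MEP comparisons, but not for the others. Most of these moves came where a compared group was left with 1 library. With both groups kept at 2 libraries, the number was 0 for Runx1-deleted GMP against MEP without either wild-type GMP library (23.7%). Without the lower library of Runx1-deleted MEP and of XMP, a setting chosen after seeing the data, the number was 2 for wild-type GMP against MEP (17.9%). In Runx1-deleted GMP against MEP, which then has 1 MEP library, the difference of Rrm2 was 0.47. The cause was not tested.

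Leaving out 1 library also turned the sign of the mean over the 37 genes for Runx1-deleted GMP minus MEP (-0.16 to 0.43), for the Runx1 effect in GMP (-0.19 to 0.039) and in MEP (-0.39 to 0.20), and for XMP minus Runx1-deleted GMP (-0.25 to 0.10) and MEP (-0.24 to 0.36). The mean over the 37 genes gave a Runx1 effect in GMP of -0.073, and 0.056 with quantile normalization. The difference of the Runx1 effects was 0.02, ranged from -0.28 to 0.32 when 1 library was left out, and was -0.28 without both lower libraries. Of the named genes, 8 values turned sign, each with a library of Runx1-deleted MEP left out. Over the settings that leave out 1 library, the difference of effects ranged from -0.81 to 0.19 for Dut and from -0.70 to 0.055 for Fen1. XMP minus Runx1-deleted MEP ranged from -0.040 to 0.91 for Rrm2, from -0.75 to 0.0094 for Fen1 and from -0.77 to 0.012 for Cdc6. Runx1-deleted GMP minus MEP ranged from -0.93 to 0.068 for Dut and from -0.0025 to 0.73 for Cdt1, and was -0.0025 for Cdt1 without both lower libraries. Of the other named values 765 kept their side, 19 gained a call and 13 lost one.

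The labels do not say that replicate numbers mark a shared batch. Same-numbered libraries had deviations that correlated at -0.059 (GMP) and 0.30 (MEP) between genotypes, at -0.11 for the wild-type cell types and at 0.78 for Runx1-deleted MEP and XMP. With a replicate block the counts of replication genes called were 0, 0, 0, 0, 0, 1 and 1 in the 7 comparisons, as without it. In the same order 5.06%, 7.74%, 1.59%, 19.4%, 7.35%, 21.2% and 23.8% of all tested genes were called. With crossed numbers, added after seeing the data, 1 was called in each GMP against MEP comparison. Beside it stood 22.6% of all tested genes in wild-type and 27% in Runx1-deleted cells. In XMP against Runx1-deleted GMP 0 was called, beside 21.7% of all tested genes. Lanes 4 and 5 alone could give no value for the Runx1 effect in GMP, the difference of effects or wild-type GMP against MEP. With 2 libraries a group the median 95% interval of a replication gene reached 0.52 either way.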
